A study of Mus musculus with 28 samples.

Results

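Complement is a set of secreted and cell surface proteins that tags targets for uptake by phagocytes and recruits them. The 9 genes described here encode 3 chains of the recognition molecule C1q (C1qa, C1qb and C1qc), the components C3 and C4b, properdin (Cfp) and 3 receptors or receptor subunits (C3ar1, C5ar1 and Itgam). They were taken by symbol from a table of 14617 mouse genes, and all 9 were measured and passed the filter on low counts that left 12327 genes for testing.

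Every mouse was a lethally irradiated Cx3cr1-gfp/+ host, so its own Cx3cr1-expressing cells were GFP-positive, and each brain was taken 16 weeks after bone marrow transplantation. The control marrow was hDNMT3A fl/fl and the mutant marrow was Vav-Cre: hDNMT3A fl/fl. The allele was in the donor marrow only, and Vav-Cre acts in blood-forming cells. Sorting took GFP-positive (host) and GFP-negative (donor) cells of 2 compartments, the parenchyma, whose cells the labels name microglia, and the leptomeninges, the membranes on the brain surface. With each marrow there were 4 libraries of donor microglia, 4 of host microglia, 4 of donor leptomeningeal cells and 2 of host leptomeningeal macrophages, 28 in all. The labels give neither the age of the mice nor whether libraries of a group came from separate animals, so the p-values measure only the spread between these libraries, which may be technical.

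Transcripts were counted as unique molecular identifiers (UMIs), which mark each captured mRNA molecule once. Levels are given as CPM, the UMIs of a gene scaled to a library of 1000000 UMIs. Donor microglia were the shallowest population, with 479077 to 1013608 UMIs a library, against 877905 to 1475135 in host leptomeningeal macrophages and 1521847 to 3066506 in the other two populations. Fold changes are log2 values from edgeR's quasi-likelihood test with its standard error (SE), called at a Benjamini-Hochberg adjusted p under 0.05 over all genes tested. They use TMM scaling, which gave donor leptomeningeal libraries factors of 0.834 to 0.898 and host microglia 1.07 to 1.21, so a fold change can differ from the ratio of the CPM values. With library totals in place of TMM factors, a choice made after the data were seen, the median of all genes was -0.14 instead of 0.037 between donor and host microglia, -0.22 instead of 0.016 between donor and host leptomeningeal cells, -0.28 instead of -0.032 between donor compartments, -0.10 instead of 0.078 between host compartments and -0.31 instead of 0.11 between donor leptomeningeal cells and host microglia. The calls over all genes then divided into 3513 higher and 4480 lower, 1317 and 3088, 2724 and 5150, 3171 and 4055, and 3452 and 5922 in those comparisons, against 4083 and 3365, 2083 and 1636, 3757 and 3889, 3831 and 3164, and 4867 and 4038 with TMM.

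The sorted populations were checked against marker genes. Microglia markers made up 2.93 to 3.55% of UMIs in host microglia and 0.741 to 0.899% in donor microglia. They took 0.556 to 1.0% in host leptomeningeal macrophages, a range that spans that of donor microglia, and 0.121 to 0.23% in donor leptomeningeal cells. Sall1, a transcription factor that defines microglia, lay between 298 and 361 CPM in host microglia but between 8.21 and 33.4 CPM in donor microglia. Border macrophage markers were highest in host leptomeningeal macrophages (1.22 to 1.73% of UMIs), and lay at 0.438 to 0.728% in donor leptomeningeal cells. The 16 neutrophil markers took 3.74 to 10.02% of UMIs in donor leptomeningeal cells, 0.203 to 0.611% in host leptomeningeal macrophages, 0.112 to 1.06% in donor microglia and 0.0594 to 0.154% in host microglia. Astrocyte markers took 0.107 to 0.54% of UMIs in donor microglia and at most 0.0308% elsewhere, and neuron markers took 0.0382 to 0.199% there and at most 0.0101% elsewhere. Of the 14 fibroblast markers 13 were in the table, and they took 0.0023 to 0.00968% of UMIs in donor microglia, 0.000241 to 0.000534% in host microglia, 0.0327 to 0.0621% in donor leptomeningeal cells and 0.0182 to 0.0317% in host leptomeningeal macrophages. The 8 monocyte markers took 0.259 to 0.553% in donor leptomeningeal cells, 0.034 to 0.052% in host leptomeningeal macrophages, 0.0121 to 0.0629% in donor microglia and 0.00177 to 0.00702% in host microglia.

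The complement cascade can start when C1q binds a target together with its proteases, which leads to cleavage of C4 and C2 and then of C3. Fragments of C3 stay on the target and are bound by complement receptor 3, whose alpha chain, CD11b, is encoded by Itgam. The small fragments C3a and C5a act on the G protein-coupled receptors encoded by C3ar1 and C5ar1. Properdin stabilises the alternative pathway convertase. In the brain, microglia are a main source of C1q, and C1q and C3 are known for marking synapses that microglia then remove.

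The C1q chains are encoded side by side on mouse chromosome 4 (mm10), within 18675 bases from 136880129 to 136898803, all on the minus strand, in the order C1qb, C1qc, C1qa. C3ar1 is on chromosome 6 (122847138 to 122856161), C5ar1 on chromosome 7 (16246743 to 16259540), and Itgam on the plus strand of chromosome 7 (128062640 to 128118491). C4b (34728380 to 34743882) and C3 (57203970 to 57228136) are on chromosome 17, and Cfp is on chromosome X (20925454 to 20931555). C4b has a near-identical copy, C4a, and the sources used here do not give how the counting divided reads between them, so C4b values are uncertain in that respect. Itgam overlaps the predicted gene Gm49368, which had at most 7 UMIs in any library.

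Because the C1q chains and Itgam had their highest mean CPM in host microglia, the sequences before their start sites are shown where the RefSeq promoter table (GRCm38.p6) has them. Each is the 250 bases before the RefSeq start, 5′ to 3′ in the direction of the gene. Capitals mark GAGGAA on either strand (TTCCTC is the opposite strand), the core letters of sites of PU.1, an ETS-family factor required for macrophage development. The windows are chr4:136886201-136886450 (minus strand) for C1qb, chr4:136892915-136893164 (minus strand) for C1qc and chr7:128062390-128062639 (plus strand) for Itgam.
C1qb: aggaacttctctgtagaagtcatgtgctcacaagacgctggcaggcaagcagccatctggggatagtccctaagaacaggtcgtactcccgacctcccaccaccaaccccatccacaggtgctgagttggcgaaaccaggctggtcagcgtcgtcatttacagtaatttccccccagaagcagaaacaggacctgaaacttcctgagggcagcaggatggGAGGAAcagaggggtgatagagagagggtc
C1qc: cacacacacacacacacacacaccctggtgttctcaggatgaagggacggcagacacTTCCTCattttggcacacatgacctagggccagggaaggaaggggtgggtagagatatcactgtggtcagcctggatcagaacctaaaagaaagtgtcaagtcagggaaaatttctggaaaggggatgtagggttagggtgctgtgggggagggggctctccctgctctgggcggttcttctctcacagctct
Itgam: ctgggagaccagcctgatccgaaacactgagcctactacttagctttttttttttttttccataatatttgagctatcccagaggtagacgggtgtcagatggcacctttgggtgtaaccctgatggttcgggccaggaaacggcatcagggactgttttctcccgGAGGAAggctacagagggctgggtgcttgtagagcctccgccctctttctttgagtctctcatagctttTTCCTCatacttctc
Over the full table windows, which also hold 50 bases after the start, GAGGAA was found on either strand for 4 of the 7 genes in the table, namely C1qb, C1qc, Itgam and Cfp, whose 2 matches lie after the start. C5ar1, whose mean CPM was also highest in host microglia (43.5, against 43.3 in host leptomeningeal macrophages), had no match and is not shown. The same letters occur in 28.3% of 32851 promoters of that length. A match describes letters in a window and is not a measured binding site.

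Of the 9 genes, 8 differed between donor and host microglia, 3 higher and 5 lower in donor cells, where 60.4% of all genes tested were called (33.1% higher, 27.3% lower). Between donor and host leptomeningeal cells 2 were higher and 6 lower in donor cells, against 30.2% of all genes (16.9% higher, 13.3% lower). Between the compartments, 5 were higher and 4 lower in donor leptomeningeal cells than in donor microglia (62.0% of all genes called, 30.5% higher and 31.5% lower), and 4 were higher and 3 lower in host leptomeningeal macrophages than in host microglia (56.7%, 31.1% higher and 25.7% lower). Donor microglia had 5 lower and 0 higher than host leptomeningeal macrophages (45.8%, 24.2% higher and 21.6% lower), and donor leptomeningeal cells had 3 higher and 5 lower than host microglia (72.2%, 39.5% higher and 32.8% lower). The donor-host difference itself was unequal in the 2 compartments for 6 of the 9 genes, 4 with a positive and 2 with a negative difference of microglia minus leptomeninges (42.3% of all genes, 23.2% higher and 19.1% lower). The median log2 fold over the 9 genes was -0.28, -0.62, 0.68, 0.19, -0.56 and -0.43 in these 6 comparisons, beside medians of all genes of 0.037, 0.016, -0.032, 0.078, 0.020 and 0.11. Most comparisons between populations called a large share of all genes, so the counts alone do not set these genes apart. Comparisons that share a population are not independent.

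**Figure D1:**
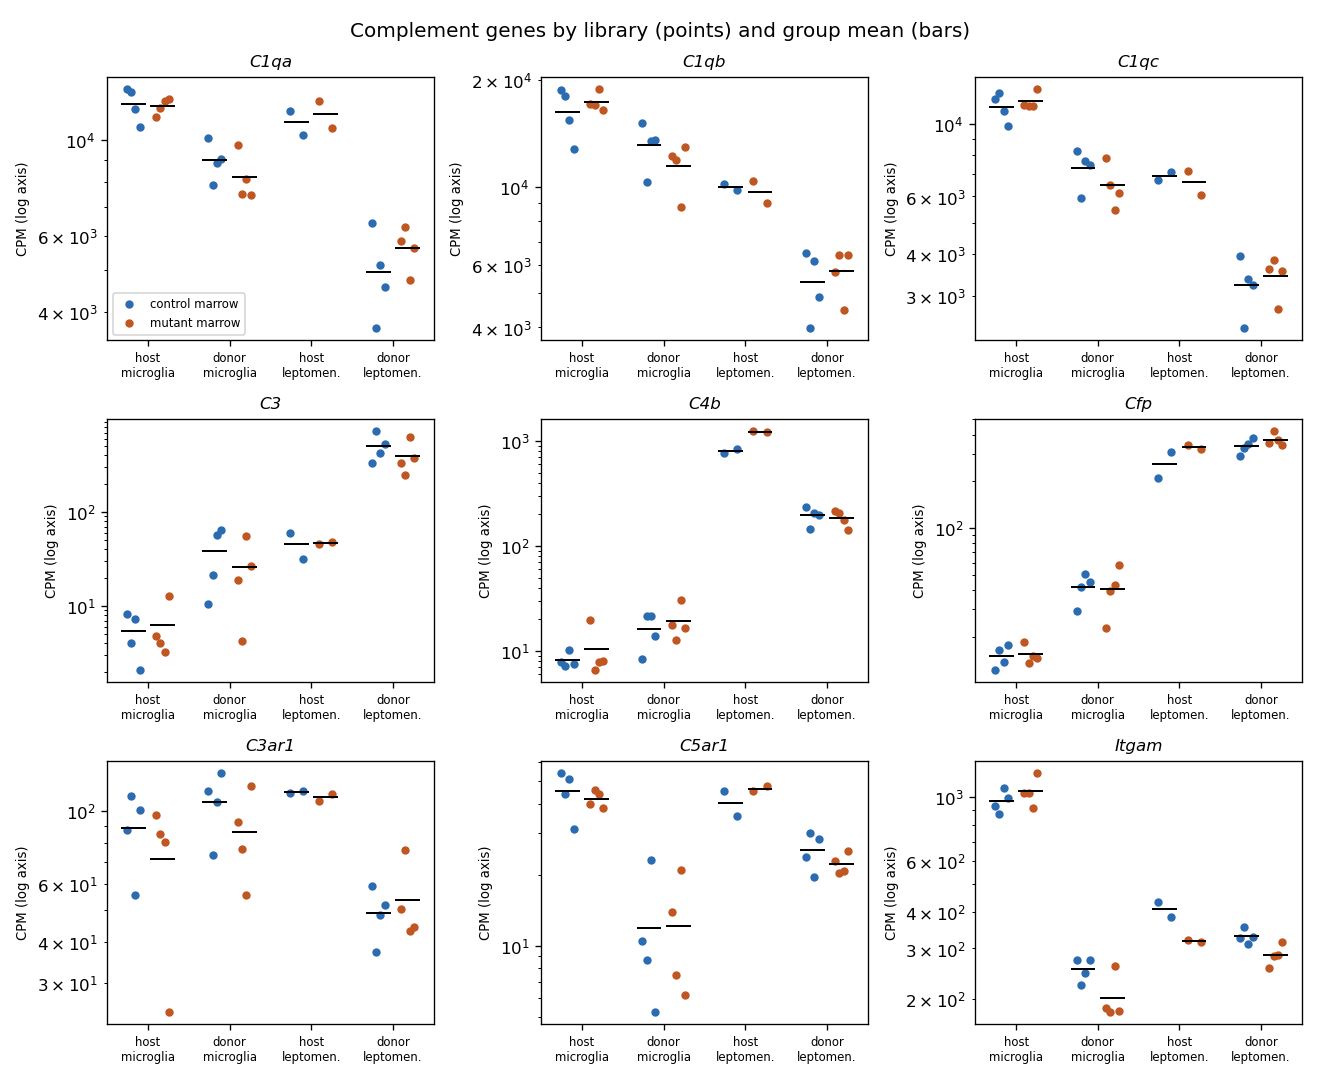
Level of each of the 9 genes (CPM, log axis) in all 28 libraries, by population, with control marrow in blue and mutant marrow in orange; each point is 1 library and the bar is the group mean. By mean CPM, C1qb, C1qc and Itgam are highest in host microglia, where C1qa overlaps with host leptomeningeal macrophages, C3 in donor leptomeningeal cells and C4b in host leptomeningeal macrophages.

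The C1q chains were abundant in every population and were lower in donor than in host cells of both compartments. Together they made up 3.34 to 4.37% of all UMIs in host microglia, 2.57 to 2.99% in host leptomeningeal macrophages, 2.24 to 3.35% in donor microglia and 1.00 to 1.69% in donor leptomeningeal cells. C1qc, which encodes the C chain, ran from 9851 CPM through a median of 11340 to 12720 in host microglia, and from 5444 through 7010 to 8245 in donor microglia. Those 2 ranges did not overlap. In host leptomeningeal macrophages the 4 values of C1qc were 6746, 7144, 7194 and 6046 CPM, and in donor leptomeningeal cells they ran from 2382 through 3469 to 3952. Donor leptomeningeal cells were therefore below every library of the other populations.

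In donor against host microglia, C1qc was lower by a log2 fold of -0.56 ± 0.094 (SE, adjusted p = 1.6e-06 in edgeR's test) and C1qa, the A chain, by -0.32 ± 0.089 (adjusted p = 0.00201). C1qa lay between 10700 and 13100 CPM in host microglia and between 7460 and 10130 in donor microglia, without overlap. C1qb, the B chain, was lower by -0.28 ± 0.11 (edgeR adjusted p = 0.0258), from 12810 to 18890 CPM in host and from 8784 to 15150 in donor microglia, and these ranges overlapped. The call of C1qb was lost with DESeq2's size factors (adjusted p = 0.0991), in DESeq2's own test (0.117), in limma voom (0.079), with the microglia groups alone (0.0947), and without control host microglia library 1 (0.0659), control library 2 (0.0542) or mutant library 3 (0.0505). Astrocyte and neuron markers were higher in every donor than in any host microglia library. With their level, the mean log2(CPM + 1) of the markers, as a covariate the folds were 0.20 for C1qa, 0.81 for C1qb and 0.41 for C1qc. None was called (edgeR adjusted p = 0.886, 0.448 and 0.716). Such a covariate nearly stands for the comparison itself, so this fit holds little information on the difference.

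In the leptomeninges the donor cells were lower by -0.86 ± 0.11 for C1qa, -0.59 ± 0.13 for C1qb and -0.79 ± 0.11 for C1qc (edgeR adjusted p = 9.03e-09, 0.000518 and 1.82e-07). C1qa lay at 11670 and 10290 CPM in host macrophages with control marrow, at 12330 and 10680 with mutant marrow, and between 3671 and 6434 in donor leptomeningeal cells. None of the 3 chains overlapped between these populations. The share of all genes without overlap was not counted, and 30.2% of all genes tested were called in this comparison. The neutrophil markers took a larger share of UMIs in every donor leptomeningeal library than in any host library. With the neutrophil level as a covariate the folds were -0.66, -0.23 and -0.53, none called (edgeR adjusted p = 0.142, 0.801 and 0.321). Here too the fit holds little information on the difference. In these sorted pools, fewer cells of a type and less RNA of a gene per cell cannot be told apart.

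Between compartments the chains did not move alike in host cells. Host leptomeningeal macrophages were lower than host microglia in C1qb (-0.59 ± 0.14, edgeR adjusted p = 0.000354) and C1qc (-0.58 ± 0.12, adjusted p = 4.94e-05). The difference in C1qa was 0.081 ± 0.11 (adjusted p = 0.546, 95% interval -0.13 to 0.29), and its sign turned to -0.10 with library totals. In donor cells all 3 chains were lower in the leptomeninges, C1qb by -0.90 ± 0.11, C1qc by -0.81 ± 0.094 and C1qa by -0.46 ± 0.089 (edgeR adjusted p = 8.82e-09, 5.06e-10 and 1.91e-05). The donor-host difference itself was larger in the leptomeninges for C1qa, where the 2 differences differed by 0.54 ± 0.14 (edgeR adjusted p = 0.00159). For C1qb (0.31 ± 0.17, adjusted p = 0.148) and C1qc (0.23 ± 0.15, adjusted p = 0.211) that difference did not pass the test. Donor leptomeningeal cells were lower than host microglia in each chain, with log2 folds of -0.78 for C1qa, -1.18 for C1qb and -1.37 for C1qc (edgeR adjusted p = 1.43e-10, 1.05e-11 and 3.17e-17). Donor microglia stood below host leptomeningeal macrophages in C1qa (-0.40 ± 0.11, edgeR adjusted p = 0.00205). In that comparison C1qb was at 0.31 ± 0.13 (adjusted p = 0.0533), which passed with DESeq2's size factors (0.0241), and C1qc at 0.018 ± 0.11 (adjusted p = 0.917).

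The make-up of the C1q transcripts mostly followed the compartment in C1qa. This share needs no scaling between libraries, and it is described without a test. C1qa took 28.4 to 32.1% of C1q UMIs in host microglia and 28.04 to 36.3% in donor microglia, but 35.0 to 39.7% in donor leptomeningeal cells and 37.8 to 41.5% in host leptomeningeal macrophages. The donor ranges overlapped through mutant donor microglia library 3, at 36.3%. C1qc took 26.6 to 30.6% in host microglia, above the 23.1 to 26.3% of donor microglia, 22.8 to 25.5% of donor leptomeningeal cells and 23.5 to 26.3% of host leptomeningeal macrophages. The median share of C1qb was 42.0% in host microglia, 45.0% in donor microglia, 38.6% in donor leptomeningeal cells and 35.3% in host leptomeningeal macrophages. Its ranges in host microglia (38.4 to 44.4%), donor microglia (39.3 to 48.9%) and donor leptomeningeal cells (37.5 to 42.0%) overlapped. A mature C1q molecule holds the A, B and C chains in equal numbers, and transcripts are counted at their 3′ end, so the shares compare populations and not the chains with one another.

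**Figure D2:**
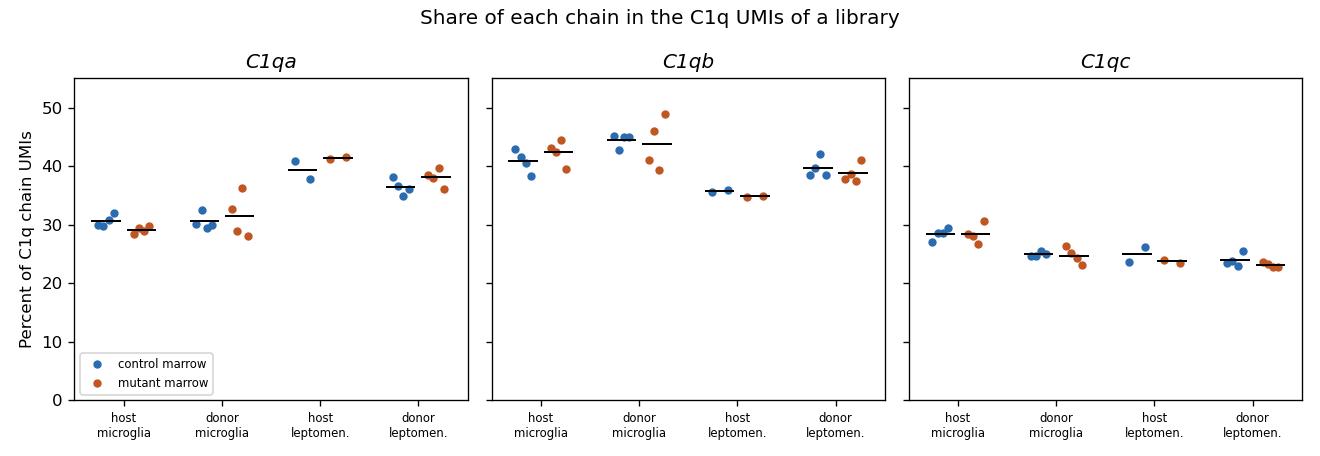
Percent of the UMIs of the 3 C1q genes that came from C1qa, C1qb and C1qc in each library (points; bars are group means), by population and marrow genotype. The C1qa share is 28.04 to 36.3% in both microglia populations and 35.0 to 41.5% in both leptomeningeal populations.

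C3, the component on which the pathways of activation converge, was highest in donor leptomeningeal cells. With control marrow its 4 libraries held 336, 725, 429 and 525 CPM, and with mutant marrow 336, 245, 622 and 379 CPM. Host leptomeningeal macrophages held 60.2 and 31.9 CPM with control marrow and 45.2 and 48.1 with mutant marrow. Donor microglia held 10.4, 21.7, 57.4 and 64.2 CPM with control marrow and 18.7, 4.27, 55.6 and 26.7 with mutant marrow, from 4 to 56 UMIs a library. Host microglia held 2.07 to 12.8 CPM, from 5 to 21 UMIs. Donor leptomeningeal libraries were thus above all others, while the range of donor microglia reached into those of both host populations.

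In the test, C3 was 3.48 ± 0.41 higher on the log2 scale in donor than in host leptomeningeal cells, an 11.2-fold difference (edgeR adjusted p = 6.69e-07). It was 4.05 ± 0.34 higher in donor leptomeningeal cells than in donor microglia (adjusted p = 1.34e-09), 2.68 ± 0.52 higher in donor than in host microglia (adjusted p = 0.000135) and 3.24 ± 0.53 higher in host leptomeningeal macrophages than in host microglia (adjusted p = 1.94e-05). Donor leptomeningeal cells exceeded host microglia 106-fold (6.73 ± 0.38, edgeR adjusted p = 5.42e-13). Donor microglia and host leptomeningeal macrophages differed by -0.56 ± 0.48 (adjusted p = 0.364, 95% interval -1.50 to 0.38). The donor-host difference was not called as unequal in the 2 compartments (-0.80 ± 0.69, edgeR adjusted p = 0.386).

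Neutrophil and monocyte markers both differed along with C3 between libraries. In the 8 donor leptomeningeal libraries, the library with the most C3 (725 CPM) had 10.02% of its UMIs in neutrophil markers, the next (622 CPM) had 8.58%, then 7.36% at 525 CPM and 6.05% at 429 CPM. The 3 libraries between 336 and 379 CPM had 5.6 to 5.7%, and the library lowest in C3 (245 CPM) had 3.74%. In the same order of libraries, monocyte markers took 0.553%, 0.445%, 0.477% and 0.396%, then 0.297 to 0.332% in those 3 and 0.259% in the lowest. Fibroblast markers took 0.0371% in the library highest in C3 and 0.0407% in the lowest, with their most (0.0621%) in control library 1 at 336 CPM. In the same order of libraries, border macrophage markers took 0.438%, 0.483%, 0.644% and 0.646%, then 0.571 to 0.668% and 0.728% in the lowest. Among donor microglia with control marrow, libraries 3 and 4 had the most C3 and neutrophil markers at 0.85% and 1.06%, against 0.144% and 0.289% in libraries 1 and 2, and monocyte markers at 0.0617% and 0.0629% against 0.0188% and 0.026%. Mutant library 3 had 55.6 CPM of C3 with neutrophil markers at 0.193% and monocyte markers at 0.0184%. The part of any of these cell types in the level of C3 was not tested. With the neutrophil level as a covariate the C3 difference was -0.30 between donor and host leptomeningeal cells (edgeR adjusted p = 0.864), 0.55 between donor and host microglia (0.223), 0.089 between donor compartments (0.943), 0.63 between donor leptomeningeal cells and host microglia (0.609) and 0.93 between host compartments (0.0465). The neutrophil level itself differs between the populations, so these fits hold little information on such differences.

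**Figure D3:**
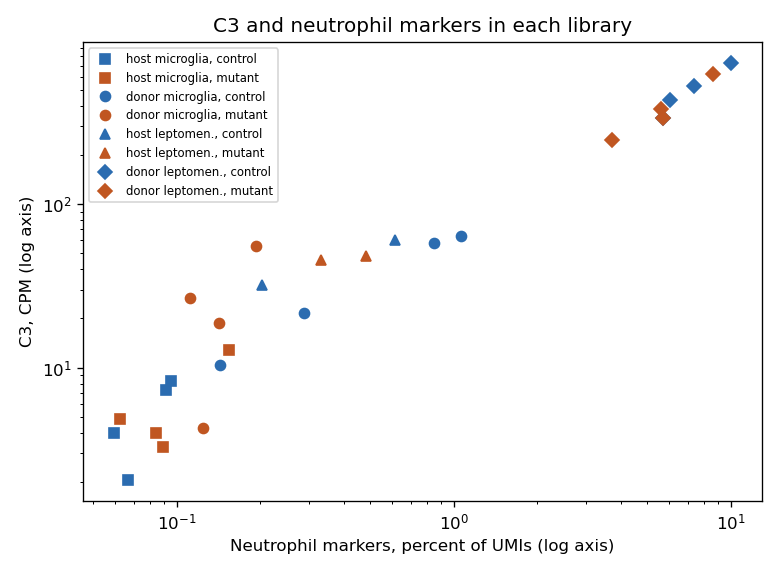
C3 (CPM) against the percent of UMIs in 16 neutrophil markers, both on log axes, each point 1 library. Marker shape gives the population, and colour gives the marrow, control in blue and mutant in orange. In the 8 donor leptomeningeal libraries C3 runs from 245 CPM at 3.74% to 725 CPM at 10.02%.

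C4b, which encodes complement C4 of the classical and lectin pathways, was highest in host leptomeningeal macrophages. It stood at 773 and 846 CPM with control marrow and 1241 and 1218 CPM with mutant marrow. In donor leptomeningeal cells it was 234, 146, 207 and 199 CPM with control marrow and 214, 205, 178 and 143 with mutant marrow. Donor microglia had 8.35 to 30.8 CPM and host microglia 6.51 to 19.7, from as few as 4 UMIs a library. The 2 leptomeningeal populations did not overlap with each other or with the microglia. Its near-identical copy C4a did not exceed 4.27 CPM in any library.

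C4b was 119-fold higher in host leptomeningeal macrophages than in host microglia (log2 6.89 ± 0.17, edgeR adjusted p = 3.93e-25). It was 12.2-fold higher in donor leptomeningeal cells than in donor microglia (3.61 ± 0.18, adjusted p = 1.98e-17). Donor cells were lower than host cells in the leptomeninges (-2.16 ± 0.14, adjusted p = 9.89e-14) and higher in the microglia (1.12 ± 0.25, adjusted p = 0.000243). The 2 donor-host differences differed by 3.28 ± 0.30 (edgeR adjusted p = 2.16e-10). In the microglia, the difference was 0.28 with astrocyte and neuron markers as a covariate (edgeR adjusted p = 0.956), and 0.46 with fibroblast markers (0.437). Both marker levels differ between donor and host microglia, so these fits hold little information on the difference. Against host leptomeningeal macrophages, donor microglia were lower by -5.77 ± 0.18 (edgeR adjusted p = 1.74e-21), and donor leptomeningeal cells were above host microglia by 4.73 ± 0.16 (adjusted p = 2.65e-22).

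Cfp, which encodes properdin, was higher in both leptomeningeal populations than in either microglia population. Host leptomeningeal macrophages had 209 and 308 CPM with control marrow and 343 and 321 with mutant marrow, and donor leptomeningeal cells ran from 291 through a median of 351 to 421 CPM. Donor microglia had 22.7 to 57.5 CPM and host microglia 12.1 to 18.5, without overlap. Host leptomeningeal macrophages exceeded host microglia 21.6-fold (4.43 ± 0.13, edgeR adjusted p = 6e-31), and donor leptomeningeal cells exceeded donor microglia 10.3-fold (3.37 ± 0.12, adjusted p = 2.97e-27). Donor were above host microglia by 1.57 ± 0.15 (adjusted p = 1.44e-12). In the leptomeninges donor cells were 0.51 ± 0.11 above host cells (edgeR adjusted p = 0.000406), with overlapping values, and this call was lost with library totals (0.27, adjusted p = 0.0556). The donor-host difference was larger in the microglia by 1.06 ± 0.19 (edgeR adjusted p = 7.44e-06). Donor microglia were below host leptomeningeal macrophages by -2.86 ± 0.13 (adjusted p = 3.33e-22).

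**Figure D4:**
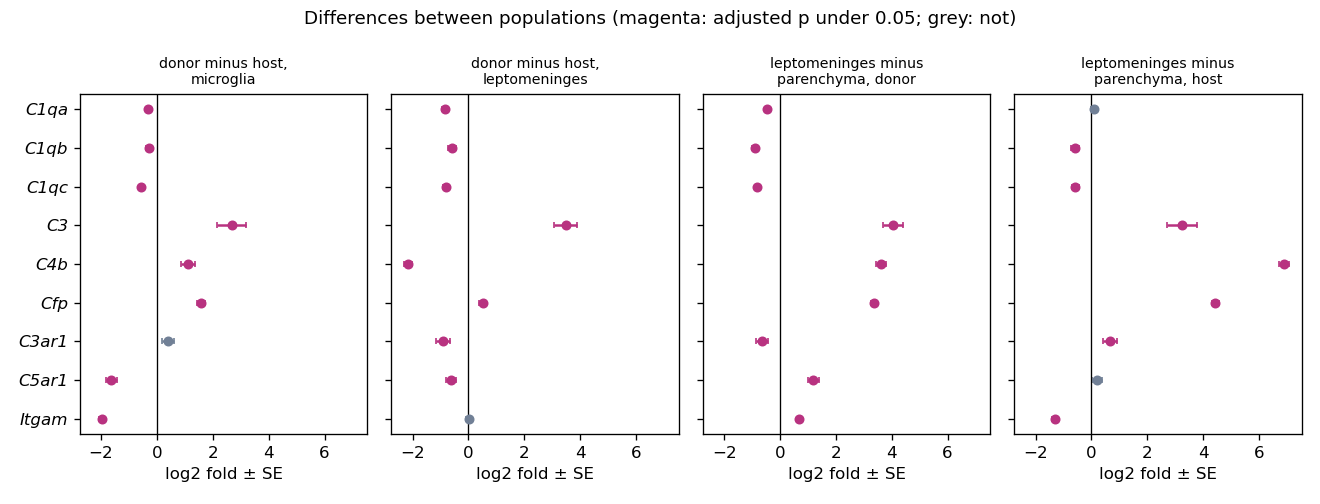
Log2 fold (edgeR, ± SE) of each gene in the comparisons between populations named above each panel, with magenta points at an adjusted p under 0.05 and grey points otherwise. C4b is 6.89 higher in host leptomeningeal macrophages than in host microglia, and Itgam is 1.98 lower in donor than in host microglia.

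Itgam, the alpha chain of complement receptor 3, separated host microglia from the rest. Host microglia had 934, 876, 1076 and 995 CPM with control marrow and 1037, 1031, 920 and 1211 with mutant marrow. Donor microglia had 273, 224, 246 and 274 CPM with control marrow and 187, 180, 261 and 183 with mutant marrow. Donor leptomeningeal cells had 325, 357, 311 and 330 CPM and 256, 283, 285 and 317 CPM in the same order of marrow, and host leptomeningeal macrophages 435, 384, 320 and 317 CPM. No library of another population reached the lowest host microglia library.

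Donor microglia were 3.94-fold lower in Itgam than host microglia (log2 -1.98 ± 0.086, edgeR adjusted p = 4.01e-24). Host leptomeningeal macrophages were lower than host microglia by -1.30 ± 0.11 (adjusted p = 8.53e-15). In donor cells the order turned, with leptomeningeal cells 0.68 ± 0.085 above microglia (adjusted p = 2.58e-09). Donor and host leptomeningeal cells differed by 0.0024 ± 0.10 (edgeR adjusted p = 0.995, 95% interval -0.19 to 0.20), and by -0.23 with library totals (adjusted p = 0.0564). The donor-host differences in the 2 compartments differed by -1.98 ± 0.14 (edgeR adjusted p = 1.9e-16). Donor microglia were also below host leptomeningeal macrophages (-0.68 ± 0.10, adjusted p = 4.3e-07), and donor leptomeningeal cells below host microglia (-1.30 ± 0.081, adjusted p = 3.44e-19). Neutrophils also express Itgam. With their markers as a covariate the donor-host fold in microglia was -2.175 and called, while that between donor compartments was 0.26 and not called (edgeR adjusted p = 0.495). The marker level differs between the populations compared, so these fits hold little information on them.

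C5ar1, the receptor for C5a, was lowest in donor microglia. It lay between 5.20 and 23.0 CPM there, from 3 to 21 UMIs a library, against 31.3 to 53.8 CPM in host microglia. Host leptomeningeal macrophages had 45.2, 35.3, 45.2 and 47.5 CPM, and donor leptomeningeal cells 19.5 to 30.0. Donor were below host microglia by -1.63 ± 0.20 (edgeR adjusted p = 1.26e-09) and below host leptomeningeal macrophages by -1.82 ± 0.23 (adjusted p = 1.44e-08), without overlap in either case. Donor leptomeningeal cells were below their host counterparts by -0.62 ± 0.18 (adjusted p = 0.00698), a call lost without control host leptomeningeal library 1 (0.0946). They were above donor microglia by 1.19 ± 0.21 (edgeR adjusted p = 2.76e-06) and below host microglia by -0.43 ± 0.14 (adjusted p = 0.00545). Both host populations differed by 0.19 ± 0.18 (adjusted p = 0.382, 95% interval -0.16 to 0.54). The donor-host difference was larger in the microglia by -1.01 ± 0.28 (edgeR adjusted p = 0.00291).

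C3ar1, the receptor for C3a, was lowest in donor leptomeningeal cells. Host microglia ran from 24.4 through a median of 86.4 to 111 CPM, with mutant library 4 at the bottom. Donor microglia ran from 55.6 through 99.7 to 130 CPM, host leptomeningeal macrophages from 107 to 115, and donor leptomeningeal cells from 37.2 through 49.2 to 76.0. Donor leptomeningeal cells were lower than host leptomeningeal macrophages by -0.91 ± 0.25 (edgeR adjusted p = 0.00719), without overlap. They were lower than donor microglia by -0.65 ± 0.22 (adjusted p = 0.0161), a call lost without the 2 shallowest libraries, control library 1 and mutant library 4 of the donor microglia (0.0593). Host leptomeningeal macrophages were 0.67 ± 0.25 above host microglia (edgeR adjusted p = 0.0248), but not when any one of the 4 host leptomeningeal libraries was left out (0.0588 to 0.0952), nor with library totals (0.118) or these groups alone (0.101). Donor and host microglia differed by 0.40 ± 0.22 (adjusted p = 0.117), which passed in DESeq2's test (0.0233). The donor-host differences in the 2 compartments differed by 1.31 ± 0.33 (edgeR adjusted p = 0.00291). Donor leptomeningeal cells and host microglia differed by -0.24 ± 0.20 (adjusted p = 0.289), which was called without mutant host microglia library 4 (0.026) and with library totals (0.00719). Donor microglia and host leptomeningeal macrophages differed by -0.27 ± 0.26 (edgeR adjusted p = 0.437).

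The order of the populations thus differed from gene to gene, and neighbours in it often did not differ beyond their spread. C1qa ran from host microglia and host leptomeningeal macrophages, which were not told apart, through donor microglia to donor leptomeningeal cells. C4b ran from host leptomeningeal through donor leptomeningeal cells and donor microglia to host microglia, with every step called. Itgam ran from host microglia through the leptomeningeal populations, not told apart, to donor microglia.

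Control and mutant marrow were then compared within each population, the question of the study. None of the 9 genes was called in donor microglia, host microglia, donor leptomeningeal cells or host leptomeningeal macrophages, where 0.0892%, 0.0649%, 0.0487% and 0.0% of all genes tested passed (11, 8, 6 and 0 of 12327). With 1 library left out these counts ran from 3 to 544, 0 to 11, 4 to 7 and 1 to 5, and the 544 came without control donor microglia library 2. At an unadjusted p under 0.05, 1, 0, 0 and 2 of the 9 lay below the threshold, beside 1255, 463, 585 and 665 of all genes. DESeq2's test called 84, 15, 8 and 26 of all genes and limma voom 125, 5, 12 and 0, and every alternative fit tried called 0 of the 9 genes.

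In donor microglia the smallest p was that of Itgam, at -0.31 ± 0.13 with mutant marrow (adjusted p = 0.394 in edgeR's test). Its mutant libraries 1, 2 and 4 lay between 180 and 187 CPM and library 3 at 261, inside the control range of 224 to 274. The other folds in donor microglia ran from -0.54 for C3 (SE 0.66) to 0.25 for C4b (SE 0.37). Over the fits without a marker covariate, those with 1 library left out included, they lay between -1.34 and -0.14 for C3, -0.24 and 0.71 for C5ar1 and -0.076 and 0.46 for C4b. The log2 fold was -0.12 for C1qa (95% interval -0.36 to 0.13), -0.18 for C1qb (-0.47 to 0.12) and -0.16 for C1qc (-0.42 to 0.097). In host microglia the folds ran from -0.27 to 0.48. The largest, that of C4b, had an edgeR adjusted p of 1.0 and was -0.091 without mutant host microglia library 1. In donor leptomeningeal cells the folds ran from -0.32 to 0.21, with Itgam at -0.19 ± 0.11 (edgeR adjusted p = 1.0). In host leptomeningeal macrophages, with 2 libraries against 2, both mutant values of C4b (1241 and 1218 CPM) were above both control values (773 and 846), at 0.65 ± 0.23 (edgeR adjusted p = 0.65). Cfp was at 0.42 ± 0.19 there (edgeR adjusted p = 0.85) and Itgam at -0.32 ± 0.17 (adjusted p = 0.92). Values of Cfp, C5ar1, Itgam and C3ar1 did not overlap between the marrows there either, with Itgam and C3ar1 lower with mutant marrow. The share of all genes without overlap was not counted.

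The genotype difference was also compared between donor and host microglia and between donor compartments. None of the 9 genes passed, beside 0.0324% and 0.0% of all genes tested (4 and 0 of 12327; 15 and 2 in DESeq2's test), and 747 and 785 genes had an unadjusted edgeR p under 0.05. The smallest p between donor and host microglia was that of Itgam (-0.46 ± 0.17, edgeR adjusted p = 0.692), and between donor compartments that of C1qa (0.32 ± 0.18, edgeR adjusted p = 0.79).

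**Figure D5:**
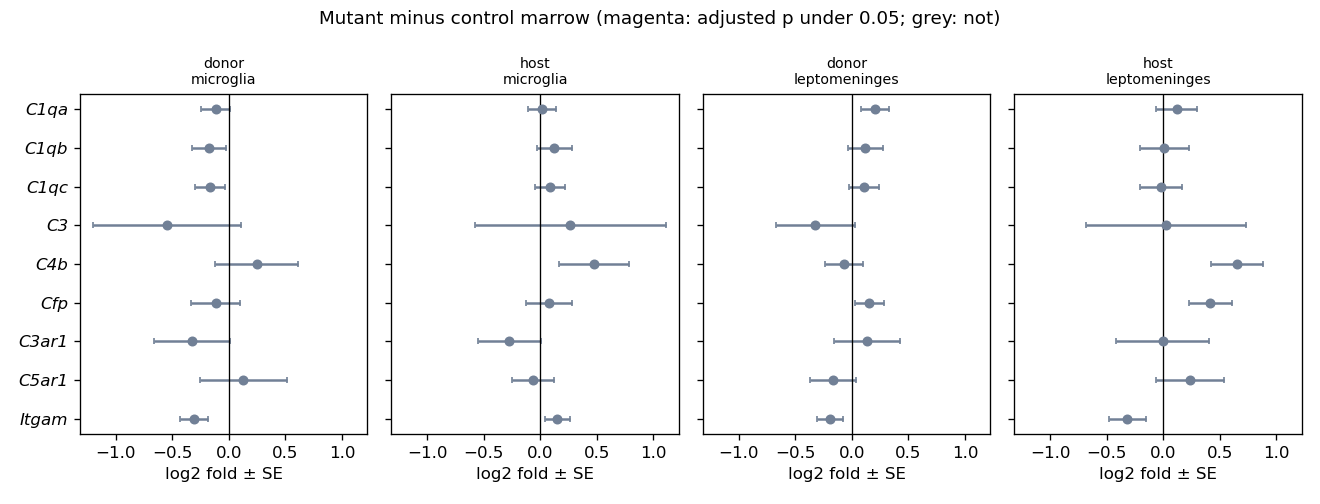
Log2 fold (edgeR, ± SE) of mutant against control marrow for each gene in the 4 populations; all points are grey because none had an adjusted p under 0.05. The folds lie between -0.54 and 0.65, with the widest errors for C3.

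Other genes of the pathway were taken from a list of 54. Of these, 27 were in the table and 25 were tested: 6 that start the classical or lectin pathway, 10 regulators and 9 receptors, whereas 0 of 2 further alternative pathway genes and 0 of 7 terminal genes were in the table. In donor against host microglia 14 were higher and 8 lower, with a median log2 fold of 1.86. Over all genes tested 33.1% were higher and 27.3% lower, with a median of 0.0368. Of the 6 initiating genes 4 were higher and 1 lower, of the 10 regulators 8 were higher and 2 lower, and of the 9 receptors 2 were higher and 5 lower. Clu, which encodes clusterin, an inhibitor of terminal complement that astrocytes make in quantity, was at 813 ± 331 CPM (SD, n = 8) in donor and 3.50 ± 1.48 in host microglia (7.95 ± 0.30, edgeR adjusted p = 6.02e-16), and astrocyte markers were higher in the same libraries. The fit with astrocyte and neuron markers as a covariate is not reported here for Clu. That marker level nearly stands for the comparison itself, so the part of astrocytes in the Clu level was not tested. Among receptors, Cd93 was higher (4.50 ± 0.21, adjusted p = 1.01e-22), and Itgb2, the beta chain that pairs with CD11b, was lower at 297 ± 47.6 against 956 ± 102 CPM (-1.51 ± 0.090, adjusted p = 2.7e-19). Masp1, a lectin pathway protease, was lower (-1.85 ± 0.30, edgeR adjusted p = 9.73e-07). Fcnb, a ficolin of neutrophil and myeloid precursor granules, had a log2 fold of 4.77 ± 0.94 (adjusted p = 0.000157), with 1.97 to 125 CPM in donor microglia.

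In donor against host leptomeningeal cells 5 of the 25 were higher and 10 lower, with a median log2 fold of -0.17, beside 16.9% higher and 13.3% lower of all genes (median 0.0156). C2, the protease that joins C4b in the classical convertase, was at 4.49 ± 0.79 CPM (SD, n = 8) in donor and 73.8 ± 16.8 (n = 4) in host cells (-3.77 ± 0.22, edgeR adjusted p = 1.88e-18), so it was highest where C4b was highest. Colec12, a collectin receptor, was lower by -3.13 ± 0.25 (adjusted p = 4.58e-14) and C5ar2, the other C5a receptor, by -1.08 ± 0.25 (adjusted p = 0.000471). Itgax, which encodes the alpha chain of complement receptor 4, was higher (1.88 ± 0.20, edgeR adjusted p = 6.4e-10). Fcnb was higher at 301 ± 128 against 16.3 ± 4.88 CPM (4.42 ± 0.53, adjusted p = 7.95e-07), in libraries where neutrophil markers were higher too.

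Between compartments, leptomeningeal cells were higher in 14 and lower in 9 of the 25 genes among donor cells, and higher in 13 and lower in 6 among host cells. The medians were 0.87 and 2.40. Over all genes 30.5% were higher and 31.5% lower among donor cells (median -0.032), and 31.1% and 25.7% among host cells (median 0.0777). In host cells C2 (6.501 ± 0.28), Colec12 (7.54 ± 0.37), the regulators Thbd (6.15 ± 0.32) and Vtn (6.63 ± 0.33) and Cd93 (5.98 ± 0.19) were higher, with edgeR adjusted p between 1.6e-29 and 4.31e-21. Calr, a chaperone that also binds C1q, was lower (-1.55 ± 0.12, adjusted p = 9.15e-16). In donor cells Fcna (6.72 ± 0.52), a macrophage ficolin, the C1 inhibitor gene Serping1 (4.94 ± 0.38), Vtn (2.89 ± 0.22) and Cd93 (2.08 ± 0.12) were higher, with edgeR adjusted p between 1.75e-19 and 3.11e-10. Itgb2 was higher by 1.48 ± 0.090 (adjusted p = 8.34e-19) and Clu was lower by -4.38 ± 0.22 (adjusted p = 2.12e-13). None of the 25 was called between genotypes.

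The genes most like each member over the 28 libraries were found by Pearson's r of log2(CPM + 1) among 8458 genes with a mean of at least 10 CPM. These values describe the libraries, which share their population and scaling. C1qa was most like Ctsz (r = 0.974), C1qb most like Trem2 (0.970) and C1qc most like Ctss (0.980). C3 was most like Lrg1 (0.984), C4b most like Cd209g (0.979) and Cfp most like Rpl39 (0.990). Itgam was most like Ppp1r18 (0.975), C5ar1 most like Rela (0.923) and C3ar1 most like Ddx5 (0.902). Next in likeness were Commd9 for C1qa, Rnase4 for C1qb and C1qc, Ly6a2 for C3, Cbr2 for C4b, Rps24 for Cfp, Abca1 for C3ar1, Rpl7l1 for C5ar1 and Mboat7 for Itgam. Among the 9 genes, C1qb and C1qc were most alike (0.974), and C4b and Cfp had an r of 0.917, whereas C3 ran opposite to C1qc (-0.927).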

How the data were processed

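RNA from 28 sorted pools of mouse cells was sequenced by MARS-seq, per the labels. The authors deposited 1 table with raw UMI counts, normalized values (a signal scale) and log2 values per library, per the file headers. The build was mm10, per the submitters' processing notes. The aligner, counter and normalization are not given in the sources used here. All results come from the counts. edgeR 4.0.16 (R 4.3.3) fitted 1 mean per group over all 28 libraries, with TMM factors, filterByExpr (12327 of 14617 genes) and Benjamini-Hochberg adjustment at 0.05 in 13 contrasts. Population contrasts average both genotypes. DESeq2 1.42.0, limma 3.58.1, other scalings, covariates and left-out libraries were alternatives. Tested on simulated donor and host microglia (12029 genes), the fit recovered 87 of 100 genes changed by 1 and 98 of 100 changed by 2 on the log2 scale, with 13 false calls. The changed genes had a mean of at least 10 CPM, as many higher as lower, and all others were set equal between donor and host. In the data 60.4% of genes were called in that comparison, so the simulation does not give the recovery or false calls there. The 95% intervals come from the SE. A library's floor of 3 UMIs was 0.978 to 6.26 CPM and covers counting error only. All 9 genes are named. Of other complement genes, up to 6 per contrast are named, by adjusted p, with a log2 fold of at least 1 and a mean of at least 10 CPM; 1 of these is not reported here. Donor microglia control library 1 and mutant library 4 were also left out together. No pair of libraries held identical counts. Members, lists, tests and alternatives were chosen with earlier results of these data known. Scaling by library totals was added after the data were seen.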

Additional observations from a re-analysis of the deposited data

Results flagged for a closer look

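In 4 of 54 combinations of a gene and a group of 4 libraries, 1 library stood far from the other 3. Chance alone gives about 1 in 20 such groups. Mutant host microglia library 4 was highest in C1qc (12720 CPM) and in C3 (12.8 CPM, 21 UMIs). It also had the lowest C3ar1 of its group and 0.154% of UMIs in neutrophil markers, the most of any host microglia library. Mutant host microglia library 1 was highest in C4b (19.7 CPM, against 6.51 to 7.94 in the other 3). Mutant donor microglia library 3 was highest in Itgam (261 CPM).

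The donor-host difference was unequal in microglia and leptomeninges for 6 of the 9 genes, where 42.3% of all genes tested were called. The difference between the differences, microglia minus leptomeninges, was 0.54 for C1qa, 3.28 for C4b, 1.06 for Cfp, 1.31 for C3ar1, -1.01 for C5ar1 and -1.98 for Itgam on the log2 scale. C4b was the one gene of these called in opposite directions in the 2 compartments. The neutrophil and astrocyte markers differed between the same populations. Their part in these differences was not tested beyond the fits with a marker covariate.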

How the results depend on the processing

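Over the 63 folds of the 9 genes in the 7 population comparisons, 57 to 62 kept their direction and side of the threshold in each fit without a marker covariate, and 984 of 1008 did with 1 library left out. Itgam between donor and host leptomeningeal cells, near 0, was -0.23 with library totals, -0.00618 in limma voom, -0.015 with only these groups, -0.012 without donor microglia control library 1 and mutant library 4, and -0.041 to 0.035 with 1 library left out. C1qa between host compartments was -0.10 with library totals and -0.015 to 0.15 with 1 library left out. C1qc between donor microglia and host leptomeningeal macrophages was -0.015 without the 2 donor microglia libraries and -0.091 to 0.089 with 1 library left out. C4b between genotypes in host microglia ran from -0.091 to 0.66 with 1 library left out.

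Whether same-numbered libraries came from the same mouse is not known from the labels. Their deviations from the group means had correlations from -0.257 to 0.179 (median 0.00856, 86 pairs). These were not compared with differently numbered libraries, so they cannot decide whether the numbers pair libraries. With the replicate number as a block, Itgam between donor and host leptomeningeal cells was -0.0551, and -0.0558 with a block within genotype. The block ended the call of C3ar1 between host compartments (adjusted p = 0.0775, and 0.0859 within genotype) and gained that of C1qb between donor microglia and host leptomeningeal macrophages (0.0431 and 0.021).

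Marker covariates moved many values. Their levels differ many-fold between the populations, so these fits hold little information on a difference between them. With neutrophil markers, 2 genes were called between donor and host leptomeningeal cells and 2 between donor compartments. Another 4 calls fell between donor leptomeningeal cells and host microglia and 3 in the difference of differences. Of all 12327 genes tested, the fit with neutrophil markers called 383, 1873, 2483 and 3595, in that order. Reversed were C3 (-0.30), C3ar1 (0.19) and Itgam (-0.38) between donor and host leptomeningeal cells, C3ar1 (0.55) between donor compartments, C5ar1 (-0.44) between host compartments, C1qc (-0.00266) between donor microglia and host leptomeningeal macrophages, C3ar1 (1.55) between donor leptomeningeal cells and host microglia, and C3 (0.84) in the difference of differences. With astrocyte and neuron markers, 1 gene was called between donor and host microglia, 4 between donor and 4 between host compartments, 2 between donor microglia and host leptomeningeal macrophages and 1 in the difference of differences. Reversed were C1qa (0.20), C1qb (0.81) and C1qc (0.41) between donor and host microglia, Itgam (-0.014) between donor and host leptomeningeal cells, C3 (0.66) and C3ar1 (0.44) between donor microglia and host leptomeningeal macrophages, C3ar1 (0.0081) between donor leptomeningeal cells and host microglia, and C3 (1.30) and C5ar1 (0.24) in the difference of differences. With fibroblast markers, 4 genes were called in each donor-host comparison, 4 between donor compartments, 3 between host compartments and 3 between donor leptomeningeal cells and host microglia. Reversed were C1qc (-0.27) between donor microglia and host leptomeningeal macrophages, and C3ar1 (0.11) and C5ar1 (0.063) between donor leptomeningeal cells and host microglia. The cause was not tested.

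Counts over all genes differed by over 1.5 times in some fits. For genotype in donor microglia, 11 became 17 without the filter, 4 with only these groups, 6 without the 2 libraries, 4 with astrocyte and neuron and 60 with fibroblast markers, 84 in DESeq2's test, 125 in limma voom, and 3 to 544 (without control library 2) with 1 library left out. The genotype difference gave 4, and 2 to 75, between donor and host microglia, and 0, and 0 to 149, between donor compartments, both highest without that library. In host microglia 8 became 3 without the 2 libraries, 0 with only these groups and 0 to 11 with 1 library left out, and in host leptomeningeal macrophages 0 became 6 with library totals, 17 with only these groups and 1 to 5 with 1 library left out. Neutrophil markers left 383 of 3719 between donor and host leptomeningeal cells, 1873 of 7646 between donor compartments and 2483 of 8905 between donor leptomeningeal cells and host microglia. Astrocyte and neuron markers left 676 of 7448 between donor and host microglia, 863 between donor and 3906 of 6995 between host compartments, 872 of 5651 between donor microglia and host leptomeningeal macrophages and 252 of 5209 in the difference of differences. Fibroblast markers left 3678, 3004, 1507 and 3382 in the first 4 of these, and 1736 between donor leptomeningeal cells and host microglia. Depth limits C3, C4b and C5ar1 most in donor microglia, where a library held as few as 3 or 4 of their UMIs.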
